A study of Mus musculus with 12 samples.

Results

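This section compares LLC1 cells given X-rays in 5 fractions of 2 Gy, 10 Gy in total (5x2 Gy), with untreated LLC1 cells. LLC1 is a cultured Lewis lung carcinoma line of the mouse. The arrays were chosen by their titles, 3 of 5x2 Gy and 3 of control, which makes 6 of the 12 arrays of the series. The other 6 arrays, 3 after a single 2 Gy and 3 after a single 10 Gy, entered the estimate of the spread and are shown beside the results. Per the series' design text, RNA was taken 4 h after irradiation. The time between fractions and the fraction from which the 4 h were counted are not given in the sources used here, and no sham handling of the control is described. The arrays are titled as biological replicates without naming separate cultures, so the p-values measure the spread between these samples. The question of the comparison is which microRNAs differed once the cells had received the fractionated dose.

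A microRNA (miRNA) is a short RNA cut from a hairpin precursor. Loaded into an Argonaute protein, it pairs mainly through its seed, the stretch of bases near its 5′ end, with sites in messenger RNAs, which are then translated less or degraded. MiRNAs that share a seed are grouped as a family, since they can pair with the same sites. After DNA breaks the transcription factor p53 is activated in many cells, and the hairpins of the miR-34 family are among its known targets.

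Limma called 15 of the 118 tested miRNAs (12.7%) higher after 5x2 Gy and 0 lower (Benjamini-Hochberg adjusted p under 0.05). A miRNA was tested when it was detected on all 3 arrays of at least 1 of the 4 groups. The largest rise was that of miR-34b-5p, 2.32-fold, and the other changes ran from 0.19 (let-7i-5p) to 1.03 (miR-129-2-3p) on the log2 scale, where those of the dimmest miRNAs depend on a floor described below. The mature sequences of 14 of the 15 are printed here from RefSeq (GRCm38.p6), 5′ to 3′, because they show which of the risen miRNAs share a targeting seed. MiR-30b-5p, the other, is named only. Bases 2 to 8, the seed, are in capitals. The 3 members of the let-7 family share 1 seed, and the 14 sequences hold 12 seeds in all.
miR-34b-5p: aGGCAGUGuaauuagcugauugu
miR-129-2-3p: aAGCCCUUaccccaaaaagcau
miR-214-3p: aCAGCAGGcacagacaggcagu
miR-26a-5p: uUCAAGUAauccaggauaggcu
miR-25-3p: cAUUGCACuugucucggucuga
miR-199a-5p: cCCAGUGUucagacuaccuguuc
miR-24-3p: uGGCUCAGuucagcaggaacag
miR-125a-5p: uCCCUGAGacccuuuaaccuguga
miR-30c-5p: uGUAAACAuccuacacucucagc
miR-100-5p: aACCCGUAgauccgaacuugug
miR-107-3p: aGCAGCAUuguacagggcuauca
let-7g-5p: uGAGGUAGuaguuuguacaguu
let-7c-5p: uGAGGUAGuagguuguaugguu
let-7i-5p: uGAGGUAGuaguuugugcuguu

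Several tested miRNAs that did not pass carry the same seeds, and 4 of them differ from a risen one by a single base. These 4 are shown because a probe may not separate them, which was not tested here, with 2 more distant seed partners, miR-30e-5p and miR-125b-5p.
miR-103-3p: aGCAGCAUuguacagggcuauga
let-7a-5p: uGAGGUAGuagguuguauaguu
let-7b-5p: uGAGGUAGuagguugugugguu
miR-99a-5p: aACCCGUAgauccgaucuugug
miR-30e-5p: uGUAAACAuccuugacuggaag
miR-125b-5p: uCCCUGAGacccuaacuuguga
Counted from the 5′ end, miR-103-3p differs from miR-107-3p by C22G (miR-107-3p has the first base named), let-7a-5p from let-7c-5p by G19A, let-7b-5p from let-7c-5p by A17G, and miR-99a-5p from miR-100-5p by A16U. The changes of these partners after 5x2 Gy were 0.24 for miR-103-3p, 0.24 for let-7a-5p and 0.07 for let-7b-5p on the log2 scale, and miR-99a-5p was at the floor on all 6 arrays.

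The arrays of the 2 groups differed before any miRNA was compared. All control arrays lay on slide 1 and all 5x2 Gy arrays on slide 2, so slide and treatment cannot be told apart between these groups, and no slide holds both. Of the other arrays only 10 Gy replicate 3 was on slide 2. Array brightness, the 75th percentile of the probe signal by which each array was scaled, was 345.9, 110.5 and 703.3 on control replicates 1 to 3 and 1088, 1102 and 1004 on the 5x2 Gy arrays. The mean was 387 ± 298 against 1065 ± 53 (SD, n = 3 each), and the groups did not overlap. Between 48 and 99 of the 566 mouse entries were detected on the control arrays and between 120 and 137 on the 5x2 Gy arrays. For both measures the exact two-sided permutation p was 0.1, the smallest that 3 arrays against 3 allow. Detection means that over 0.5 of a probe's spots were well above background. The part of brightness and slide in the results below was not tested. All 118 tested miRNAs were detected on every 5x2 Gy array and 48 of them on every control array, and 51 of the 118 were tested through the 5x2 Gy arrays alone. Of those 51, 3 were called, miR-129-2-3p, miR-100-5p and miR-30c-5p, which passed the filter only through the group in which they were high.

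**Figure D1:**
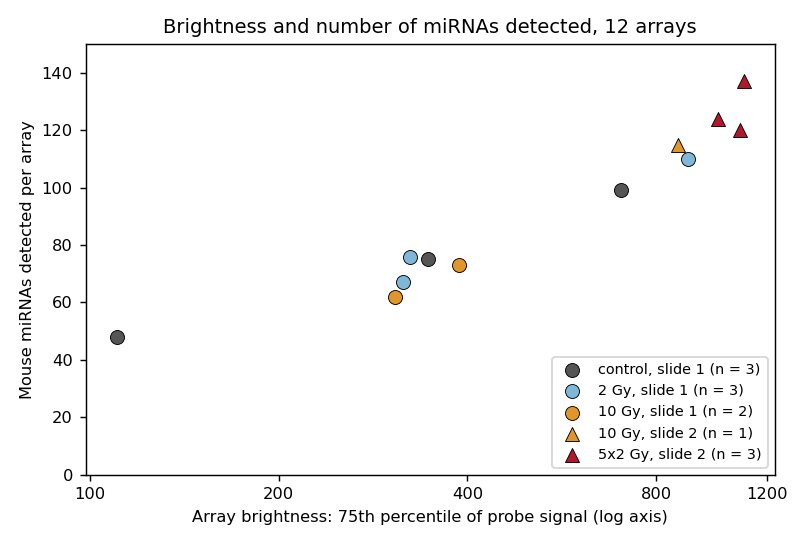
Number of mouse miRNAs detected on each of the 12 arrays (vertical axis, a count) against array brightness, the 75th percentile of probe signal (horizontal log axis). Each point is 1 array, coloured by group, with circles for slide 1 and triangles for slide 2. The 5x2 Gy arrays sit at the upper right with 120 to 137 miRNAs, and control replicate 2 at the lower left with 48.

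Levels are given as log2 of the signal relative to the array's percentile, and a change is the 5x2 Gy mean minus the control mean on that scale. A floor of 0.0592 of the percentile (log2 -4.08) was set from the noise of the negative-control spots on the dimmest array, control replicate 2. Values at the floor have no order. Of the 118 tested miRNAs, 75 were above the floor on all 6 arrays, and 49 of these changes were positive and 26 negative, with a median of 0.14.

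MiR-34b-5p had levels of -1.71, -1.65 and -1.87 on control replicates 1 to 3 and of -0.55, -0.55 and -0.49 after 5x2 Gy. All 5x2 Gy arrays were above all control arrays, and above every 2 Gy and 10 Gy array as well. The change was 1.21 (SE 0.14, 95% interval 0.90 to 1.53, limma adjusted p = 0.000888). Both probes gave it, with changes of 1.27 and 1.16. The mature strand comes from Mir34b at chr9:51103610-51103632 on the minus strand (GRCm38.p6). After a single 10 Gy the levels were -0.92, -0.79 and -0.95, and the array on slide 2, replicate 3, was the lowest of these. After 2 Gy they were -1.003, -1.56 and -1.02. The 5x2 Gy mean was 0.36 above that of 10 Gy (limma adjusted p = 0.258) and 0.67 above that of 2 Gy (limma adjusted p = 0.0259). The call against 2 Gy ended without 10 Gy replicate 1 (0.67, limma adjusted p = 0.0519) and without 5x2 Gy replicate 1, 2 or 3 (0.67, 0.67 and 0.65, limma adjusted p = 0.092, 0.0917 and 0.111). With slide as a block the value against 2 Gy was 0.76 and did not pass (limma adjusted p = 0.614). Median and quantile scaling gave 0.51 and 0.54 (limma adjusted p = 0.0971 and 0.137). Only scaling over all probes, either other floor, brightness as a covariate and the filter for detection on all 6 arrays kept the call against 2 Gy. The call of miR-34b-5p against control was kept without any 1 of the 12 arrays (1.15 to 1.26). With slide as a block the change was 1.31 and did not pass (limma adjusted p = 0.0748), and with normexp background correction at an offset of 50 it was 0.68 and did not pass (limma adjusted p = 0.0718). The slide block rests on the 10 Gy group alone, where replicate 3 was on slide 2 and replicates 1 and 2 on slide 1.

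The rest of the Mir34b and Mir34c hairpins was at the edge of detection or varied more. MiR-34c-5p, which is made from the neighbouring hairpin and also belongs to the miR-34 family, had levels of -2.10, -1.21 and -2.38 on the control arrays and -0.84, -1.05 and -0.92 after 5x2 Gy. The groups did not overlap, but the control arrays spread over more than 1 log2 unit, with the dimmest array highest. Its change was 0.96 (SE 0.42, limma adjusted p = 0.161) and it did not pass, although a fit with brightness as a covariate called it (2.01, limma adjusted p = 0.000308). The star strands miR-34b-3p and miR-34c-3p were detected on all 3 arrays of 5x2 Gy and on no other array of the series. Before scaling, miR-34b-3p had signals of 52.2, 40.5 and 44.7 after 5x2 Gy, against -2.12, -2.05 and 4.76 on the control arrays. On the other slide 2 array, 10 Gy replicate 3, its signal was 17.8. MiR-34c-3p had 46.9, 41.7 and 39.5 after 5x2 Gy, -4.61, -7.89 and 3.31 in control and 22.1 on 10 Gy replicate 3. After scaling both star strands were at the floor on all 6 arrays, so no change could be measured for them.

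MiR-129-2-3p, known from nerve cells and from genes silenced by methylation in tumours, rose by 1.03 (SE 0.18, limma adjusted p = 0.00928). Its levels were -4.05, -4.08 and -3.90 in control and -2.88, -3.06 and -2.99 after 5x2 Gy. Only 1 of the 3 control arrays detected it and it was tested through the 5x2 Gy arrays alone, so its control level is close to the floor and no fold is given. All 3 arrays of 10 Gy were above all control arrays too, at -3.26, -3.18 and -3.34, whereas 2 Gy replicate 2 was at the floor. One of its probes was detected on no array, and the change comes from the other probe alone. With the floor doubled the change was 0.10 (limma adjusted p = 0.133), and with a total signal per miRNA from the scanner software it was 0.

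**Figure D2:**
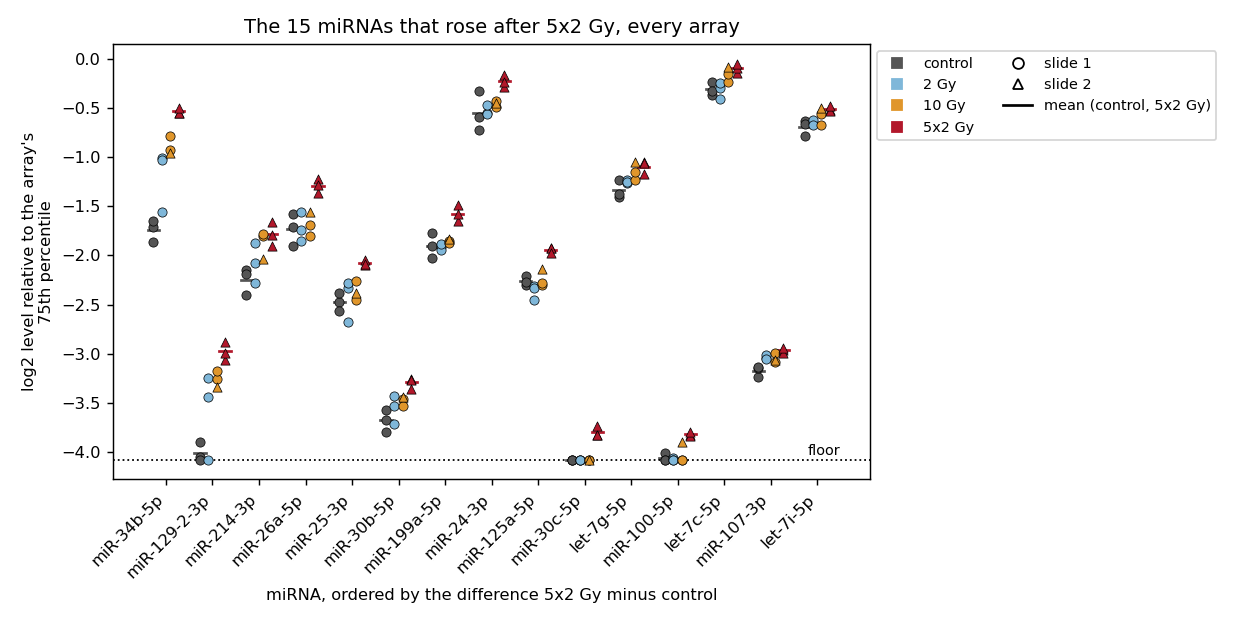
Log2 level relative to the array's 75th percentile (vertical axis) of the 15 miRNAs that rose after 5x2 Gy, ordered by their change (horizontal axis). Each point is 1 of 12 arrays, coloured by group, with circles for slide 1, triangles for slide 2, horizontal bars for the means of control and 5x2 Gy and a dotted line at the floor of -4.08. In all 15, which were called on these same arrays, the 5x2 Gy points are above the control points, as in 33 of the 118 tested miRNAs (28%). MiR-34b-5p and miR-129-2-3p are separated most.

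Among the smaller rises were miR-199a-5p and miR-214-3p, both known from mesenchymal cells. Mir199a-2 and Mir214 share a transcript from the opposite strand of the gene for dynamin 3 and lie 5594 bases apart on chromosome 1 in GRCm38.p6. MiR-199a-5p is also made from Mir199a-1 on chromosome 9, and the array does not separate the copies. MiR-214-3p had levels of -2.15, -2.40 and -2.19 in control and -1.66, -1.90 and -1.79 after 5x2 Gy, a change of 0.46 (SE 0.12, limma adjusted p = 0.0407). MiR-199a-5p went from -1.91, -1.77 and -2.03 to -1.49, -1.65 and -1.58, a change of 0.33 (SE 0.06, limma adjusted p = 0.0103). In both, every 5x2 Gy array was above every control array, which held for 33 of the 118 tested miRNAs (28%). The other strand of the Mir199a hairpins, miR-199a-3p, had a change of 0.35 and did not pass (limma adjusted p = 0.112), and miR-214-5p was at the floor on all 6 arrays. After 10 Gy, miR-214-3p was at -1.80 and -1.78 on replicates 1 and 2, within the range of 5x2 Gy, and at -2.04 on replicate 3, the slide 2 array, below every 5x2 Gy array. The 10 Gy levels of miR-199a-5p lay between -1.87 and -1.83, also below every 5x2 Gy array.

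MiR-26a-5p, which restrains the histone methyltransferase Ezh2 in several cell types, rose from -1.71, -1.91 and -1.58 to -1.36, -1.22 and -1.29, a change of 0.44 (SE 0.11, limma adjusted p = 0.0354). MiR-25-3p, of the Mir106b-25 cluster, rose from -2.48, -2.57 and -2.38 to -2.09, -2.05 and -2.09, a change of 0.40 (SE 0.10, limma adjusted p = 0.0379). For both, the highest control array remained below the lowest 5x2 Gy array, as for 28% of the tested miRNAs. The cluster partners of miR-25-3p, miR-93-5p (0.14) and miR-106b-5p (0.26), did not pass (limma adjusted p = 0.371 and 0.112). MiR-24-3p, reported to act on the histone H2AX in the DNA damage response, rose from -0.33, -0.73 and -0.59 to -0.16, -0.28 and -0.23, a change of 0.32 (SE 0.09, limma adjusted p = 0.0453). Control replicate 1 was the highest of its group and came close to the lowest 5x2 Gy array. MiR-23a-3p (0.13), miR-27a-3p (-0.07) and miR-27b-3p (-0.05), which lie within 10000 bases of the Mir24 hairpins, did not pass (limma adjusted p = 0.923, 0.923 and 0.897).

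MiR-125a-5p, a homologue of the worm miRNA lin-4, was 1 of the 2 miRNAs called against the single dose of equal total, and the other, miR-30c-5p, was at the floor on every 10 Gy array. Its levels were -2.30, -2.21 and -2.27 in control and -1.92, -1.93 and -1.98 after 5x2 Gy, a change of 0.32 (SE 0.05, limma adjusted p = 0.00623). After 10 Gy they were -2.30, -2.28 and -2.13, with the slide 2 array highest. The 5x2 Gy mean was 0.29 above that of 10 Gy (limma adjusted p = 0.0215) and 0.42 above that of 2 Gy (limma adjusted p = 0.00152). The call against 10 Gy ended without 10 Gy replicate 1 or 2 (0.26 and 0.28, limma adjusted p = 0.107 and 0.118) or without 5x2 Gy replicate 1, 2 or 3 (0.28, 0.29 and 0.31, limma adjusted p = 0.114, 0.0741 and 0.0569). Of the other processing settings, only scaling over all probes, the floor doubled and the replicate number as a block kept that call (limma adjusted p = 0.0499, 0.0321 and 0.0404). With slide as a block the values against 10 Gy and 2 Gy were 0.19 and 0.27 (limma adjusted p = 0.318 and 0.384). With normexp at an offset of 50 the value against 10 Gy was -0.11 (limma adjusted p = 0.725). Its seed partner miR-125b-5p changed by 0.42 but with a larger spread and did not pass (limma adjusted p = 0.147). The cluster partners of Mir125a were let-7e-5p (0.30) and miR-99b-5p (0.44), which did not pass either (limma adjusted p = 0.275 and 0.265).

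The let-7 family, which holds down growth and stemness factors such as Lin28, Hmga2 and Ras, gave 3 of the calls. Let-7g-5p went from -1.40, -1.37 and -1.23 to -1.18, -1.05 and -1.06 (0.24, limma adjusted p = 0.0379). Let-7c-5p went from -0.37, -0.24 and -0.32 to -0.14, -0.09 and -0.05 (0.22, limma adjusted p = 0.0379). Let-7i-5p went from -0.64, -0.67 and -0.78 to -0.52, -0.53 and -0.47 (0.19, limma adjusted p = 0.0407). For each of the 3, every 5x2 Gy array was above every control array, as for 28% of the tested miRNAs. However, the 5x2 Gy mean of each was at or below the level of 10 Gy replicate 3, the other array of slide 2 (-0.04, -0.01 and -0.01). MiR-107-3p, which sits in an intron of a pantothenate kinase gene, rose by 0.21 (SE 0.03, limma adjusted p = 0.00623). It had levels of -3.24, -3.14 and -3.14 in control and -2.96, -2.99 and -2.94 after 5x2 Gy, and was detected on 2 of the 3 control arrays. Its seed partner miR-103-3p changed by 0.24 and did not pass (limma adjusted p = 0.154).

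The remaining 3 calls lay near the floor. MiR-30b-5p, detected on 2 control arrays, rose by 0.39 (SE 0.08, limma adjusted p = 0.015), from -3.68, -3.79 and -3.57 to -3.25, -3.26 and -3.36. One of its probes was at the floor in both groups and the other had a change of 0.77, so the mean of the probes depends on the floor. MiR-100-5p, a regulator of the kinase mTOR, was at the floor on 2 control arrays and at -4.01 on the other, and had -3.82, -3.83 and -3.80 after 5x2 Gy (0.24, limma adjusted p = 0.00928). Of its probes too, one was at the floor in both groups, and the other had a change of 0.48. MiR-30c-5p had -3.83, -3.74 and -3.83 after 5x2 Gy, and the other 9 arrays of the series were at the floor (0.28, limma adjusted p = 5.74e-05). The p of miR-30c-5p rests on floored values with no spread. Before scaling, miR-30c-5p had signals of 76.4, 82.4 and 70.8 after 5x2 Gy, 13.8, 3.77 and 25.3 in control and 45.8 on 10 Gy replicate 3. Since no control array detected it, it has only a bound: against the lowest signals well above background there the difference was -0.62, so no fold is given. With the floor doubled, miR-30c-5p and miR-100-5p had a change of 0 and miR-30b-5p of 0.28, and with the floor 4 times lower they had 0.97, 0.94 and 0.77.

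The calls did not all rest on every array. Without control replicates 1, 2 and 3 in turn, 10, 9 and 11 of the 15 were called, and without 5x2 Gy replicates 1, 2 and 3, 8, 7 and 8. Without 2 Gy replicates 1, 2 and 3 there were 10, 13 and 12 of them, and without 10 Gy replicates 1, 2 and 3 there were 13, 9 and 14. MiR-34b-5p, miR-107-3p, miR-125a-5p, miR-129-2-3p, miR-100-5p, miR-199a-5p and miR-30c-5p were called in all 12 of these fits. Of these, miR-129-2-3p, miR-100-5p and miR-30c-5p passed the filter only through the 5x2 Gy arrays. Their control levels were at or next to the floor, and leaving out an array cannot show how far their calls rest on it. MiR-30b-5p was called in 10 of 12, miR-26a-5p in 7, miR-25-3p in 6, let-7g-5p and let-7c-5p in 5, let-7i-5p and miR-214-3p in 3, and miR-24-3p in 1. No change turned its sign in those fits. With normexp background correction at an offset of 50, in contrast, 11 of the 15 changes were negative, and none of the 15 was called. MiR-34b-5p, let-7c-5p, let-7i-5p and miR-24-3p were the 4 that stayed positive there.

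**Figure D3:**
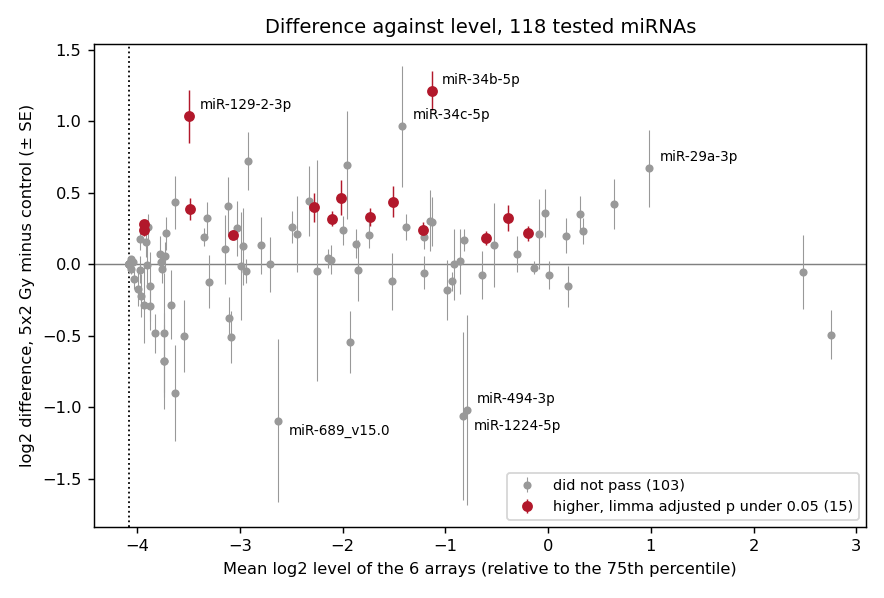
Change after 5x2 Gy on the log2 scale (vertical axis, bars of 1 SE) against the mean log2 level of the 6 arrays (horizontal axis) for the 118 tested miRNAs. Red points are the 15 that rose and grey points the 103 that did not pass, and the dotted line marks the floor. The red points lie between the floor and the level of let-7c-5p (control mean -0.31, 5x2 Gy mean -0.09), and none lies among the brightest miRNAs. The most negative grey points, miR-689_v15.0, miR-1224-5p and miR-494-3p, have SE of 0.57, 0.59 and 0.66, and the longest bar (0.77) is that of miR-690, at a change of -0.04.

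The single array of 10 Gy on slide 2 was set beside the 5x2 Gy arrays of that slide, as a description without a test. In 12 of the 15 called miRNAs all 3 arrays of 5x2 Gy were above 10 Gy replicate 3, and the exceptions were the 3 let-7 members. The same held for 56 of the 118 tested. The 118 include 20 at the floor on all 6 arrays, which could not lie above 10 Gy replicate 3. The 15 were called on the same 5x2 Gy values, so the 2 shares are not alike. The 5x2 Gy mean of miR-34b-5p was 0.42 above that array, that of miR-129-2-3p 0.37, of miR-25-3p 0.31 and of miR-26a-5p 0.27. With slide as a block, 1 of the 118 was called, miR-30c-5p, whose floored values limit it as above. The comparisons with 10 Gy and with 2 Gy share the 5x2 Gy arrays with the comparison above. Against 10 Gy limma called 2 of 118 higher (1.69%), miR-125a-5p and miR-30c-5p, with 18 higher and 0 lower at an unadjusted p under 0.05. Against 2 Gy it called 5 higher (4.24%), miR-34b-5p, miR-125a-5p, miR-100-5p, miR-199a-5p and miR-30c-5p, with 24 higher and 1 lower at an unadjusted p under 0.05. Of these, miR-100-5p and miR-30c-5p were tested through the 5x2 Gy arrays alone and were at or next to the floor on the 2 Gy arrays. With the floor doubled, both had a change of 0 against 2 Gy. The values of miR-199a-5p were 0.28 against 10 Gy (limma adjusted p = 0.0503) and 0.34 against 2 Gy (limma adjusted p = 0.0138). The call against 2 Gy ended without 5x2 Gy replicate 1 or 3 both for miR-199a-5p (0.30 and 0.35, limma adjusted p = 0.0639 and 0.0559) and for miR-100-5p (0.26 and 0.24, limma adjusted p = 0.0536 and 0.0559).

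Of the miRNAs that did not pass, miR-29c-3p came close to the threshold. It belongs to the miR-29 family, which restrains collagen genes and DNA methyltransferases, and the family is printed here because all 3 members were tested and share 1 seed.
miR-29a-3p: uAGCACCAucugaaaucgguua
miR-29b-3p: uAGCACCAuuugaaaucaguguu
miR-29c-3p: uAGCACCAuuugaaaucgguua
MiR-29c-3p had levels of -3.21, -3.57 and -3.08 in control and -2.64, -2.50 and -2.54 after 5x2 Gy, a change of 0.72 (SE 0.21, limma adjusted p = 0.0515). MiR-29a-3p had 0.93, 0.09 and 0.93 in control and 1.33, 1.31 and 1.32 after 5x2 Gy (0.67, limma adjusted p = 0.143). MiR-29b-3p had a change of 0.36 (limma adjusted p = 0.175). With brightness as a covariate the changes of miR-29c-3p, miR-29a-3p and miR-29b-3p were 0.24, 0.014 and -0.012. In all 3 the groups did not overlap, which held with 5x2 Gy higher for 33 of the 118 tested miRNAs (28%). Control replicate 2, the dimmest array, was the lowest in all 3. MiR-29a-3p was also high on the slide 2 array of 10 Gy, at 1.23, against 0.56 and 0.58 on the other 10 Gy arrays.

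No miRNA passed in the negative direction (0%), and limma found 7 lower and 29 higher at an unadjusted p under 0.05. With 1 change in the processing the count of lower calls ran up to 8, with normexp at an offset of 1. Without control replicate 1 limma called 1 lower and without control replicate 3 it called 4. Without control replicate 2 it called 5 lower, miR-21a-3p, miR-714, miR-689_v15.0, miR-1224-5p and miR-709. The groups of 33 miRNAs (28%) did not overlap with 5x2 Gy higher, and those of 6 (5.08%) did not overlap with 5x2 Gy lower. MiR-21a-3p, the passenger strand of the oncogenic miR-21, had levels of -3.80, -3.20 and -3.76 in control and was at or next to the floor after 5x2 Gy (-4.08, -4.06 and -4.08). Its change of -0.48 had a limma adjusted p of 0.0515. MiR-7a-5p, which acts on growth factor signalling, had -2.95, -2.37 and -3.18 in control and -3.41, -3.26 and -3.34 after 5x2 Gy (-0.51, limma adjusted p = 0.113). In both, control replicate 2 was the highest array.

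The most negative changes of all were of entries whose control arrays disagreed. MiR-1224-5p had levels of 0.97, -1.70 and -0.17 on control replicates 1 to 3, and -1.36, -1.39 and -1.33 after 5x2 Gy. MiR-494-3p had 0.77, -1.64 and 0.02 in control and -1.34, -1.28 and -1.29 after 5x2 Gy. MiR-689_v15.0, a name from an older miRBase release, had -0.89, -3.45 and -1.91 in control and -3.16, -3.25 and -3.13 after 5x2 Gy. In each the 5x2 Gy arrays lay close together and between the highest and the lowest control array. Their changes were -1.06, -1.02 and -1.09, with SE of 0.59, 0.66 and 0.57, and did not pass (limma adjusted p = 0.265, 0.356 and 0.239). Without control replicate 2 they were -1.76, -1.70 and -1.78, and without control replicate 1 -0.42, -0.49 and -0.50. Of the 6 tested entries in a list often traced to transfer RNA, ribosomal RNA or repeats or rich in G and C, all 6 were negative, with a median of -0.61, and none passed (limma, 2 lower at an unadjusted p under 0.05). That median was 0.83 with scaling over all probes, 1.05 without scaling and 0.78 with the deposited log2 values, which raised all changes together, and it was negative in the other 14 settings. Their summed level, in units of the percentile, was 8.75 to 15.2 on the control arrays and 6.55 to 7.71 on the 5x2 Gy arrays.

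Set out by group, the other lists gave few calls, and their medians stand against 0.00 over all 118 tested and 0.14 over the 75 above the floor. In the p53-responsive list 6 of 11 entries on the array were tested and 2 of these rose (miR-34b-5p, miR-107-3p), with a median of 0.19. The star strands miR-34b-3p and miR-34c-3p, at the floor, count in it with a change of 0. No strand of miR-34a, which is on that list, was among the tested miRNAs, and only 6 entries of the list were detected on any of the 6 arrays. The let-7 family had 3 of 9 higher (median 0.20), and miR-98-5p (-0.48) was its 1 negative member. In the miR-30 family 2 of 5 were higher (median 0.28), in the miR-99/100 and miR-125 families 2 of 7 (median 0.32) and in the miR-26 family 1 of 2 (median 0.35). The list of the miR-15, miR-16, miR-322, miR-103 and miR-107 families had 1 of 6 (median 0.21) and the miR-23/27/24 clusters 1 of 5 (median 0.13). The miR-17-92 cluster and its paralogue clusters, which drive proliferation, had 1 of 10 higher, miR-25-3p of the Mir106b-25 cluster, and 7 of 10 changes were negative (median -0.07). The tested entries miR-17_v17.0 (0.13) and miR-106a_v17.0 (0.10), named without a strand, were not matched to this list and did not pass. Of regulators of the DNA damage response 2 of 7 were higher, miR-24-3p and miR-100-5p (median 0.00). Of miRNAs abundant in carcinoma lines limma called 0 of 10 (median -0.01, 1 lower at an unadjusted p under 0.05), and miR-21a-5p changed by -0.06 (limma adjusted p = 1). For inflammation and the interferon response it called 0 of 4 (median -0.01, 0 at an unadjusted p under 0.05). These shares are to be read against the 12.7% of all tested miRNAs that were called. Median scaling turned the medians of let-7 (-0.01) and of the miR-23/27/24 clusters (-0.08). Normexp at an offset of 50 turned those of the p53-responsive list (-0.68), the miR-30 family (-0.75), the miR-99/100 and miR-125 families (-0.54), the miR-15, miR-16, miR-322, miR-103 and miR-107 families (-0.26) and the miR-23/27/24 clusters (-0.16). Scaling over all probes and no scaling raised every miRNA together and turned the median of the miR-17-92 and paralogue clusters (1.54 and 1.76).

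**Figure D4:**
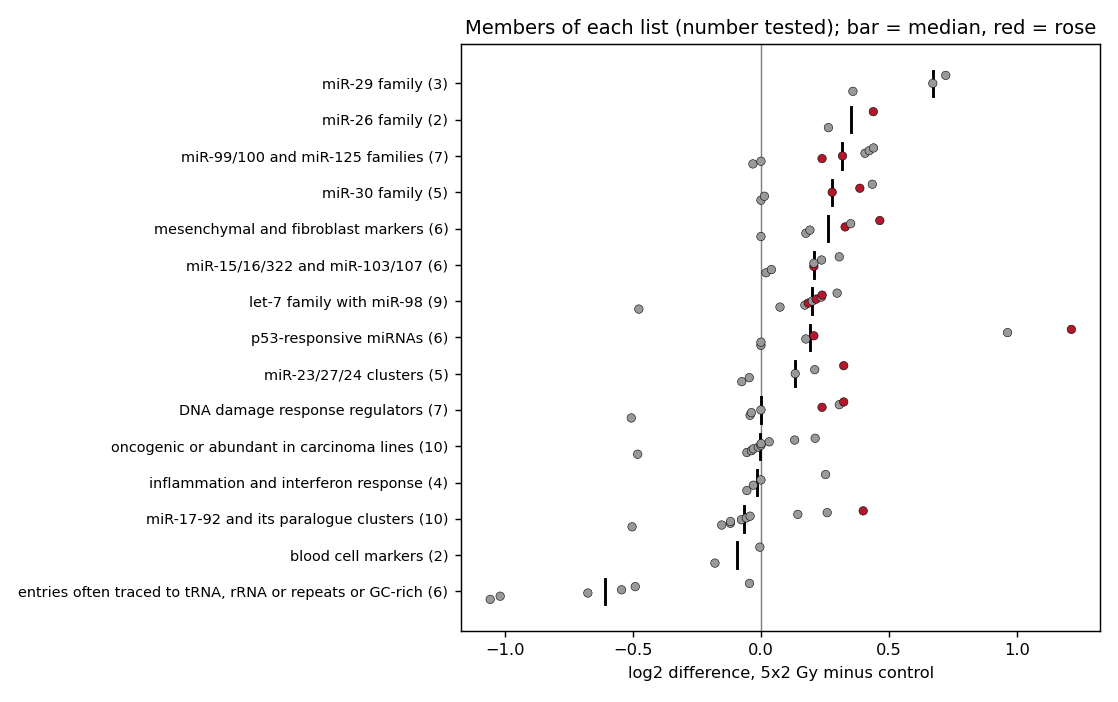
Change after 5x2 Gy on the log2 scale (horizontal axis) of every tested member of the 15 lists with at least 2 tested members (rows, with the number tested). Points are miRNAs, red where they rose, and black bars are list medians. Of these lists the miR-29 family has the highest median (0.67) with no member that passed, and the entries traced to transfer RNA, ribosomal RNA or repeats or rich in G and C the lowest (-0.61).

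Marker miRNAs of cell types were read on the same arrays. Of the 6 epithelial entries of the miR-200 family and miR-205, none was detected on any of the 6 arrays, although the label names a carcinoma. Of 7 mesenchymal markers 6 were tested and 2 rose, with a median of 0.26 (-0.17 with normexp at an offset of 50), with a summed level of 1.95 to 2.37 percentile units in control and 2.58 to 2.65 after 5x2 Gy. Over all 118 tested miRNAs 12.7% rose, and the median change of the 75 above the floor was 0.14. Neither endothelial nor muscle markers had a tested member (0 of 2 and 0 of 6 on the array). Of 7 blood cell markers on the array 2 were tested, miR-142a-3p (-0.18) and miR-142a-5p (-0.00), and neither passed (limma adjusted p = 0.718 and 1). Their summed level was 0.483 to 0.744 in control and 0.468 to 0.636 after 5x2 Gy. Among 7 nerve cell and liver markers only miR-129-2-3p was tested. Whether other cells took part in the results was not tested, and more RNA per cell and more cells of a type cannot be told apart in these bulk samples.

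Detection is given here as a description without a test, since it was called on unscaled signals and the 5x2 Gy arrays were the brighter ones. On all 3 arrays of 5x2 Gy and on no control array, 21 miRNAs were detected, and the reverse held for 0. Of these 21, 15 were also detected on 10 Gy replicate 3, the slide 2 array, and 17 were at the floor on all 6 arrays after scaling. Against the lowest detected signals of the control arrays, 0 of the 21 had a difference at or above 0, so none has a fold. The 5 detected on no array outside the 5x2 Gy group were miR-34b-3p, miR-34c-3p, miR-146a-5p, miR-425-5p and miR-99a-5p. MiR-146a-5p, a brake on inflammatory signalling, had signals of 29.7, 42.9 and 33.6 after 5x2 Gy and 7.54, 1.56 and 27 in control. The signal of control replicate 3, the brightest of its group, was thus close to the lowest of 5x2 Gy. MiR-425-5p had 38.2, 33.8 and 33.2 after 5x2 Gy and 5.23, -7.20 and 11.1 in control, and miR-99a-5p had 32.0, 31.6 and 26.7 against 6.47, -0.17 and 11.6. On 10 Gy replicate 3 the signals of these 3 were 17.4, 21.2 and 19.4.

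Base composition did not order the changes of the miRNAs with a matched sequence. Entries without one, among them miR-34c-5p, miR-709, miR-720_v18.0 and miR-689_v15.0, were left out here. Over the 64 miRNAs with a sequence and all 6 arrays above the floor, Spearman's rho between the share of G and C and the change was 0.02, given as a description across miRNAs that share the arrays. The median change was 0.13 for the 15 with over 50% G and C and 0.17 for the other 49. Of the miRNAs called, 3 and 8 fell in these 2 sets.

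**Figure D5:**
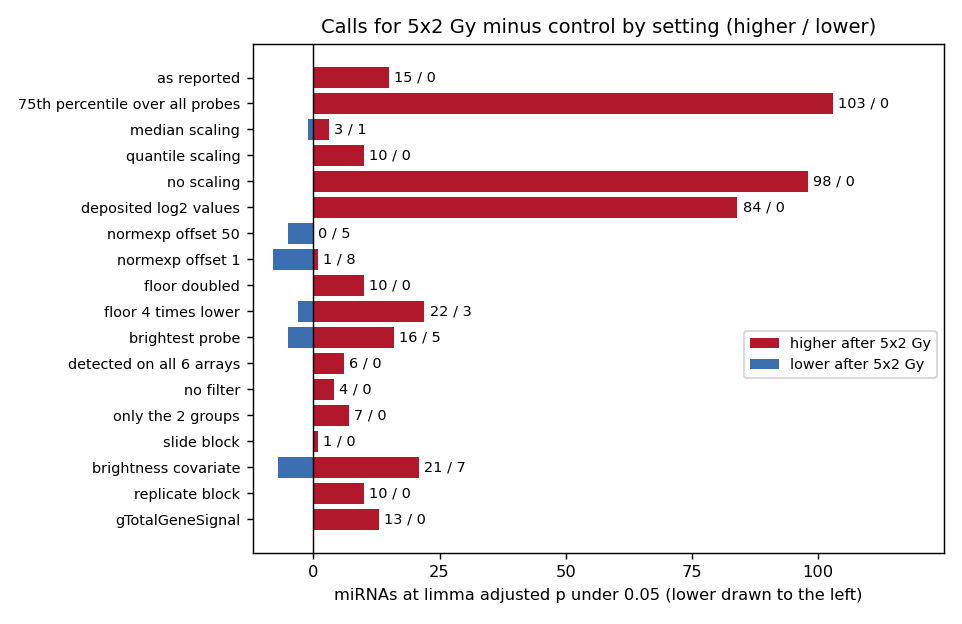
Number of miRNAs that limma called higher (drawn to the right, red) and lower (drawn to the left, blue) after 5x2 Gy under the reported processing (15 and 0) and 17 others (vertical axis), at an adjusted p under 0.05. Counts run from 1 with slide as a block to 103 with scaling over all probes, and most of the calls are lower with normexp background correction at either offset.

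The median change moved with the processing as the count of calls did. The median change of the 75 miRNAs above the floor was 0.14 as reported, 1.75 with scaling over all probes, 1.97 without scaling, -0.32 with normexp at an offset of 50 and -0.07 with median scaling. MiR-34b-5p stayed above that median in all 17 other settings, by 0.98 to 1.31, and was called in 15 of them.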

How the data were processed

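MiRNAs were measured on 12 Agilent 1-colour miRNA arrays, 1 per sample, from 100 ng of total RNA labelled with Cy3 per the labels' protocols. The deposited scanner files give a linear intensity per spot. They were made with Agilent Feature Extraction, version 10.7.3.1 in the submitters' processing notes, and their processed signal is background-subtracted and detrended, per the file headers. The spot flags in these files are other values of 0 or 1, per the file headers, and served as filters. The authors also deposited a table of log2 values, used as an alternative. Set against the scanner files, it is log2 of the processed signal with a minimum of 1, shifted by a constant on each array (column medians -0.19 to 1.14), which settles its scale, centring and direction. Per the file headers the array design is on mm9, and sequences and neighbours come from RefSeq tables of GRCm38.p6, matched by name for 101 of the 118 tested miRNAs.

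Control spots and outlier spots were left out, and 0 spots were saturated. Spot signals were averaged per probe. Scaling used the array's 75th percentile of the 78 probes that every array detected. Values were floored at 0.0592 of it and turned to log2. A miRNA's level is the mean over its probes that at least 3 arrays detected. No 2 arrays held identical values. The test was that of limma 3.58.1, run in R 4.3.3 with version 1.17.8 of data.table for reading, on all 12 arrays without covariates (8 residual and 0.45 prior degrees of freedom), two-sided, with Benjamini-Hochberg adjustment over the 118 tested miRNAs at 0.05 and intervals at 95%. Only the limma fit was tested on simulated data, drawn as log2 levels. Spot averaging, scaling, the floor, the detection filter and slides were not simulated, nor were miRNAs without spread. A change of a miRNA not detected on any array of a group is a bound against the lowest detected signals. The number of arrays limits the precision.

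The text names all called miRNAs, the 10 next by p, the 8 lowest changes above the floor, miRNAs detected on the 5x2 Gy arrays and on no control array, and list members. Both groups, the lists and the rule were chosen with earlier results of these data known. Alternatives were scaling, background, floor, probe summary, filter, samples in the fit, slide, brightness, the replicate number as a block and leaving out each array. Normexp was to use the mean spot signal and used the median spot signal, which the files hold. The scanner's total signal per miRNA was added after seeing the data. Same-numbered control and 5x2 Gy arrays had correlated deviations of 0.26, 0.12 and 0.09, so the numbers were not taken to pair the samples.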

Additional observations from a re-analysis of the deposited data

How the results depend on the processing

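For 5x2 Gy against control limma called 15 miRNAs as reported. The count was 103 with scaling over all probes, 98 without scaling and 84 with the deposited log2 values, all higher, where the median change above the floor was 1.75, 1.97 and 1.63. It was 4 with median scaling (3 higher, 1 lower), 25 with the floor 4 times lower (22 higher, 3 lower), 6 among the 48 miRNAs detected on all 6 arrays, 4 with no filter over 566 entries, 7 with only these groups in the fit, 1 with slide as a block and 28 with brightness as a covariate (21 higher, 7 lower). It was 10 with quantile scaling, all higher, and 21 with the brightest probe of each miRNA (16 higher, 5 lower). Of the 15, those called were 3 with median scaling, 4 with quantile scaling or no filter, 9 with the floor doubled or 4 times lower, 7 with only these groups, 10 with brightness, the replicate block or the total signal, and all 15 with the brightest probe, scaling over all probes, no scaling or the deposited log2 values. Normexp gave 5 calls at an offset of 50, all lower, and 9 at an offset of 1 (1 higher, 8 lower). By construction its offset is added before scaling, and the part this had in those calls was not tested. Leaving out 1 array gave 7 to 16 calls. With the replicate number as a block 10 were called, 2 against 10 Gy and 3 against 2 Gy. The numbers were not shown to pair the samples, since 5x2 Gy replicate 2 correlated best with control replicate 3 (0.18), and a call lost under that block is no weaker effect.

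Against 10 Gy, where 2 were called, the count was 81 with scaling over all probes, 4 with the floor 4 times lower or with brightness, and 1 with median scaling, the floor doubled, no filter or slide as a block. It was 0 with quantile scaling, no scaling, the deposited log2 values, normexp at both offsets, the total signal per miRNA, and for miRNAs detected on all 6 arrays, and 1 to 3 without 1 array. Against 2 Gy, where 5 were called, it was 109 with scaling over all probes, 8 with the floor 4 times lower or with brightness, 3 with quantile scaling, 2 with median scaling, no scaling, the deposited log2 values or no filter, 1 with slide as a block, 0 with normexp at both offsets or the total signal, and 2 to 9 without 1 array. The differences in array brightness (539.8 to 836.2) and in the number of miRNAs detected per array (40 to 65.5) kept their direction without any 1 of the 6 arrays.

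Signs turned mainly with the background and the scaling. At a normexp offset of 50, called miRNAs turned to -0.75 (miR-30c-5p), -0.59 (miR-107-3p), -0.31 (miR-125a-5p), -0.40 (miR-129-2-3p), -0.86 (miR-100-5p), -0.17 (miR-199a-5p), -0.74 (miR-30b-5p), -0.019 (miR-26a-5p), -0.066 (let-7g-5p), -0.34 (miR-25-3p) and -0.18 (miR-214-3p). Others turned to -0.36 (miR-29c-3p), -0.69 (miR-350-3p), -0.93 (miR-374c-5p), -0.10 (miR-106b-5p), -0.67 (miR-151-5p), -0.30 (miR-103-3p) and -0.74 (miR-30e-5p). At an offset of 1 the values were -0.25 (miR-30c-5p), -0.22 (miR-107-3p), -0.028 (miR-125a-5p), -0.38 (miR-100-5p), -0.29 (miR-30b-5p), -0.066 (miR-25-3p), -0.30 (miR-350-3p), -0.47 (miR-374c-5p), -0.30 (miR-151-5p), -0.037 (miR-103-3p) and -0.31 (miR-30e-5p). Let-7i-5p turned with median scaling (-0.030).

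Negative changes turned with scaling over all probes, no scaling and the deposited log2 values, in that order, for miR-21a-3p (0.62, 0.84, 0.50), miR-720_v18.0 (1.12, 1.34, 0.96), miR-7a-5p (0.74, 0.95, 0.60), miR-689_v15.0 (0.52, 0.73, 0.48), miR-1224-5p (0.47, 0.68, 0.43), miR-494-3p (0.59, 0.81, 0.44), miR-709 (1.07, 1.28, 0.91), miR-17-3p (0.94, 1.16, 0.81) and miR-98-5p (1.09, 1.31, 0.93). MiR-714 turned with no scaling (0.072) and the deposited log2 values (0.38). With brightness as a covariate miR-17-3p (0.11), miR-98-5p (0.52) and miR-29b-3p (-0.012) turned, with slide as a block miR-98-5p (0.27) and miR-103-3p (-0.016), and without control replicate 2 miR-98-5p (0.014). The cause of these turns was not tested. MiRNAs near the floor are limited by the signal over background of control replicate 2, the dimmest array.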
